A study of Mus musculus with 9 samples.

Results

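Sterol and fatty acid synthesis was followed through 36 genes picked by symbol, 20 of cholesterol synthesis and its control and 16 of fatty acid synthesis, desaturation and activation. All 36 were present among the 23420 rows of the expression table. A gene was tested when it reached 1 TPM (a transcript level scaled for gene length and library size) in at least 3 libraries, which 13839 genes did. That included 35 of the 36, namely all 20 sterol genes and 15 of the 16 fatty acid genes, while Acacb did not reach the limit in enough libraries. The cells were neural stem cells taken from the hippocampus of wild type C57BL/6J mice at 2 days of age and grown in culture. To let them differentiate they were moved to a medium lacking bFGF and EGF, which all 3 groups shared. In that medium they received DMSO as the vehicle, 3 µM NAT, which the labels describe as a small molecule, or 3 µM P7C3-A20, an aminopropyl carbazole. Each group had 3 libraries, which the labels call biological replicates but whose origin from distinct cultures or mice they do not state. The p-values therefore measure library-to-library spread, which may be technical. The comparisons asked where either compound moved these genes against DMSO, and where the compounds differed at the same dose.

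Cholesterol and fatty acids both start from acetyl-CoA in the cytosol. The transcription factors SREBP, made from Srebf1 and Srebf2, switch on both pathways once Scap has carried them from the endoplasmic reticulum to the Golgi, where proteases release them, and Insig1 helps to hold them back while sterols are plentiful. The brain makes nearly all of its own cholesterol, mostly in glia, and lipid synthesis in neural stem and progenitor cells is known to bear on their proliferation.

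Promoters were read from a RefSeq table on GRCm38.p6, which held 29 of the 36 genes, 16 of them sterol and 13 fatty acid genes. The windows are the 250 bases before a transcript's start, and motifs were searched on both strands. The 4 printed here, chosen after their values were seen, are those of Hmgcs1, a gene of early cholesterol synthesis, Srebf1, and the genes with the largest differences from DMSO of each pathway that the table held, Tm7sf2 and Me1. Capitals mark a sterol regulatory element (TCACNCCAC), an NF-Y motif (CCAAT) or an Sp1 motif (GGGCGG), each read on either strand.
Hmgcs1, chr13:119690101-119690350, plus strand: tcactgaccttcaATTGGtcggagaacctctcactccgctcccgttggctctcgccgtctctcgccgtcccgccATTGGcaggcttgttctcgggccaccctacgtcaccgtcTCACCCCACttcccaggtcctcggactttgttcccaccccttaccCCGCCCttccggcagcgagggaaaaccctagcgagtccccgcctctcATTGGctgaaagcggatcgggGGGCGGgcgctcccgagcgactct
Tm7sf2, chr19:6067851-6068100, minus strand: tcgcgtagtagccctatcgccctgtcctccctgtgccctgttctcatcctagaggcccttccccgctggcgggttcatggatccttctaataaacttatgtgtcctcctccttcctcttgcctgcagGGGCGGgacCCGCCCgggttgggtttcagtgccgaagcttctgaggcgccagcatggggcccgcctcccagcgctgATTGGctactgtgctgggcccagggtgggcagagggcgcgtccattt
Me1, chr9:86695915-86696164, minus strand: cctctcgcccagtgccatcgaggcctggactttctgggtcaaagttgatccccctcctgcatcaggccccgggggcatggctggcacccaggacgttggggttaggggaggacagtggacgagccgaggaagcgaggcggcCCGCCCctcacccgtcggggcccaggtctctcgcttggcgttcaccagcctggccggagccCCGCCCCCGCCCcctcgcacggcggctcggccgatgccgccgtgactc
Srebf1, chr11:60210472-60210721, minus strand: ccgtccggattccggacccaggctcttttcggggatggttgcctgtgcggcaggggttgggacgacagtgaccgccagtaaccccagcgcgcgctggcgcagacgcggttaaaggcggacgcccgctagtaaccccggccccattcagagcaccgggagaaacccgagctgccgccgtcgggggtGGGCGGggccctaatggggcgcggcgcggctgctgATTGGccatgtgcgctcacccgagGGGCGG
Me1 and Srebf1 have 2 and 3 windows in the table, of which 1 each is shown. A gene was counted for a motif when any of its windows held it, and Me1 has NF-Y letters only in the window not shown. NF-Y letters were found for 15 of the 16 sterol genes (93.8%, without Acat2) and 9 of the 13 fatty acid genes (69.2%), beside 37.5% of the 27025 genes in the table and 40.6% of its 10050 tested genes. Sp1 letters were found for 15 of 16 sterol genes (93.8%, without Pmvk) and 8 of 13 fatty acid genes (61.5%), beside 35.4% of all genes and 64.4% of the tested ones. The sterol regulatory element in the form searched was present for Hmgcs1 alone among the 29, beside 1.22% of all genes and 1.29% of tested genes. These are matches of letters in a fixed window and say nothing of binding.

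Reads recovered from the TPM steps numbered 12028821 to 14109316 per library for DMSO, 12994081 to 13803959 for NAT and 15885313 to 17217584 for P7C3-A20. Markers of neural stem cells summed to 18830 to 19260 TPM in DMSO, to 18220 to 18690 TPM after NAT and to 17250 to 18150 TPM after P7C3-A20, and all 6 were expressed. The 10 oligodendrocyte lineage markers summed to 3577 to 3721, 3413 to 3576 and 3548 to 4134 TPM, the 6 astrocyte markers to 2856 to 3032, 3082 to 3245 and 2898 to 3115 TPM, and the 6 neuron markers to 713.3 to 742.7, 698.3 to 744.0 and 675.5 to 732.8 TPM in the same order. All 8 microglial markers, all 5 fibroblast markers and all 5 adipocyte or liver markers stayed below 1 TPM in every library, and of 5 endothelial markers 3 did. The stem cell sums were lower in both treated groups than in DMSO, which followed Fabp7, the most abundant marker, at a mean of 12200 TPM in DMSO, 11410 TPM after NAT and 10930 TPM after P7C3-A20. The other stem cell markers did not move together. In that order, Hes5 averaged 154.6, 121.5 and 141.6 TPM and Nes 209.3, 203.9 and 204.1 TPM, lower in both treated groups. Sox2 averaged 607.3, 618.0 and 634.3 TPM, Slc1a3 2128, 2292 and 2063 TPM, and Vim 3791, 3767 and 3817 TPM. With NAT the astrocyte sums lay above all DMSO sums and the oligodendrocyte lineage sums below all of them. The part of these markers in the results below was not tested. These are whole cultures, in which fewer cells of a type and less RNA per cell cannot be told apart.

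The libraries also differed in how levels followed the GC content of genes. Per 10 percentage points of GC, the slope across 13711 genes on the log2 scale was between -0.0619 and 0.0072 in the 6 DMSO and NAT libraries, 0.0159 and 0.0366 in P7C3-A20 replicates 1 and 2, and 0.114 in P7C3-A20 replicate 3. That last library was the lowest of all 9 for 12 of the 35 tested members, 8 of 15 fatty acid genes and 4 of 20 sterol genes, beside 23.85% of all tested genes. It was the highest for 5 members, all sterol genes, beside 18.56% of all tested genes. Differences between the P7C3-A20 group and the others are therefore given without it where it moved them most.

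**Figure D1:**
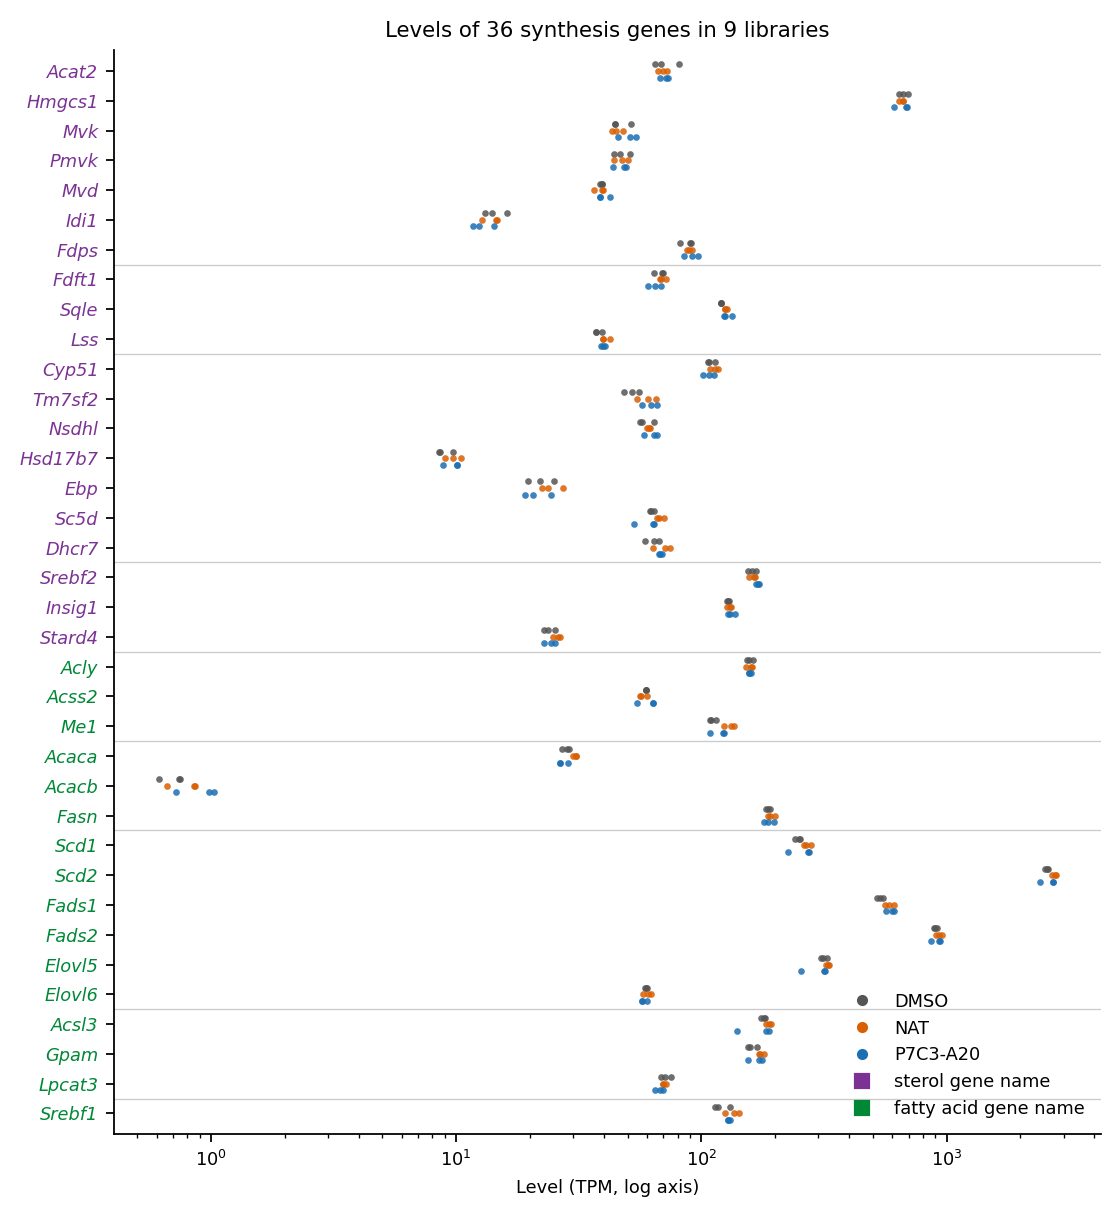
Level of each of the 36 genes in TPM on a log axis, 1 point per library, coloured by treatment, with sterol gene names in purple above fatty acid gene names in green and lines between roles. Scd2 stands highest, between 2401 and 2793 TPM, Acacb lowest, between 0.61 and 1.02 TPM, and the libraries of a gene lie close together against the distance between genes.

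Both pathways were expressed throughout, the fatty acid genes more strongly. The median member stood at 159.0 TPM in DMSO among fatty acid genes and at 60.9 TPM among sterol genes, against 26.1 TPM for all tested genes. Of the 36 genes, 16 exceeded 100 TPM in every library, 5 sterol and 11 fatty acid genes. The levels held steady: the highest library of a gene was less than 1.25 times its lowest for 25 genes, with a median of 1.17 times. Over the 9 libraries the median coefficient of variation was 5.37% for sterol genes and 5.60% for fatty acid genes, and it was 5.63% for tested genes averaging at least 10 TPM. Ranked by level, 13 of the 35 pairs of neighbours had ranges over the 9 libraries that did not overlap and 22 overlapped, so the order is resolved at the top, from Scd2 over Fads2, Hmgcs1 and Fads1 to Elovl5, and at the bottom, from Ebp over Idi1 and Hsd17b7 to Acacb, and is mostly unresolved between.

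The enzymes that make mevalonate and the isoprenoid units spanned a wide range of levels. Hmgcs1, which condenses acetyl-CoA units into HMG-CoA, stood at 694.5, 661.5 and 637.7 TPM in the DMSO libraries, 664.1, 637.5 and 664.5 TPM after NAT, and 687.7, 680.2 and 611.5 TPM with P7C3-A20. It was the most abundant sterol gene, and its 3 groups overlapped. In DMSO the cytosolic thiolase gene Acat2 averaged 71.5 ± 8.34 TPM (SD, n = 3), the farnesyl diphosphate synthase gene Fdps 87.5 ± 5.02 TPM, and the mevalonate kinase, phosphomevalonate kinase and decarboxylase genes Mvk, Pmvk and Mvd 46.9 ± 4.04, 47.3 ± 3.60 and 39.1 ± 0.491 TPM. The isopentenyl diphosphate isomerase gene Idi1 was the lowest of the members in this stretch at 14.4 ± 1.54 TPM.

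The next enzymes join farnesyl units to squalene and close it to lanosterol. In DMSO, Fdft1, the squalene synthase gene, averaged 67.7 ± 3.13 TPM (SD, n = 3), and Lss, the lanosterol synthase gene, 37.8 ± 1.26 TPM. Sqle, encoding squalene epoxidase, was at 120.4, 120.3 and 120.0 TPM in DMSO, 124.3, 124.7 and 127.0 TPM after NAT, and 123.9, 124.4 and 133.0 TPM with P7C3-A20. All 6 treated libraries exceeded all 3 DMSO libraries for Sqle, by small amounts. Among the 7 members that turn lanosterol into cholesterol, Cyp51 was the most abundant at 109.2 ± 4.21 TPM in DMSO and Hsd17b7 the least at 8.92 ± 0.647 TPM. Between them lay the reductase gene Dhcr7, the desaturase gene Sc5d and the dehydrogenase gene Nsdhl at 63.3 ± 4.04, 62.7 ± 1.14 and 59.2 ± 4.16 TPM, the reductase gene Tm7sf2 at 52.1 ± 3.59 TPM and the isomerase gene Ebp at 22.2 ± 2.80 TPM. Of the genes of control and transport, Srebf2 averaged 160.8 ± 5.76 TPM, Insig1 128.6 ± 0.837 TPM and the sterol carrier gene Stard4 23.9 ± 1.33 TPM.

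Desaturases and elongases held most of the fatty acid transcripts. Scd2, a stearoyl-CoA desaturase that places the double bond of oleate, averaged 2556 ± 39.6 TPM (SD, n = 3) in DMSO, rank 15 of the 13839 tested genes, and made up 44.95% of the summed TPM of the 16 fatty acid genes. Its paralog Scd1 averaged 248.4 ± 6.03 TPM, and Scd2 stood 9.90 to 10.65 times as high as Scd1 across the 9 libraries. How reads shared by these similar transcripts were counted is not given in the sources used here. The polyunsaturated fatty acid desaturase genes Fads2 and Fads1 averaged 899.0 ± 14.8 and 534.8 ± 14.4 TPM, and the elongase genes Elovl5 and Elovl6 315.7 ± 9.10 and 59.4 ± 0.817 TPM.

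The genes of fatty acid synthesis itself had lower levels. Fasn, the fatty acid synthase gene, averaged 186.4 ± 3.42 TPM (SD, n = 3) in DMSO, and Acaca, the cytosolic acetyl-CoA carboxylase that supplies malonyl-CoA, 28.0 ± 0.879 TPM. Acacb, the mitochondrial carboxylase gene, lay between 0.61 and 1.02 TPM in all libraries, with 24 to 54 reads. Acly, which makes acetyl-CoA from citrate, averaged 157.2 ± 4.39 TPM, Acss2, which makes it from acetate, 59.4 ± 0.128 TPM, and Me1, the malic enzyme that yields NADPH, 110.8 ± 3.06 TPM. Among the genes that activate fatty acids and build them into lipids, the acyl-CoA synthetase gene Acsl3 averaged 179.1 ± 3.99 TPM, the glycerol phosphate acyltransferase gene Gpam 160.8 ± 7.34 TPM and the lysophospholipid acyltransferase gene Lpcat3 71.6 ± 3.39 TPM. Srebf1 averaged 120.0 ± 9.07 TPM, below Srebf2. Of the 36 genes 9 share exon bases with another gene in the GENCODE annotation. The other gene is on the opposite strand for Fdft1, Lss, Cyp51, Acss2, Me1, Lpcat3 and Srebf1, and on the same strand for Tm7sf2 and Acsl3. Reads from opposite-strand stretches cannot be told apart without strand, and those from same-strand stretches could not be told apart by strand either.

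With NAT, no member passed the test against DMSO. Across all tested genes 4 were called at an adjusted p below 0.05 in limma (0.0289%), all lower with NAT. The members' differences were small and mostly upward: the log2 fold change was above 0 for 15 of 20 sterol genes and 13 of 15 fatty acid genes, where 63.5% of all tested genes were above 0. The median log2 fold change was 0.041 for sterol genes and 0.070 for fatty acid genes, against 0.030 for all tested genes. At an unadjusted p below 0.05 limma had 8 of the 35 members, all higher with NAT (22.9%, beside 8.67% of all tested genes higher and 3% lower), Tm7sf2 and Dhcr7 among sterol genes and Me1, Acaca, Scd2, Fads1, Gpam and Srebf1 among fatty acid genes. This count fell to 4 of 35 (11.4%) after quantile normalization, beside 4.96% of all genes, to 4 of 35 with the GC trend removed, beside 5.86%, and to 3 to 6 when a library was left out, beside 5.53% to 9.49%, the lowest without DMSO replicate 2. The voom fit of the recovered reads called none of the 35 and had 5 higher (14.3%) at an unadjusted p below 0.05, beside 4.44% of all genes. The count above 0 fell to 11 of 20 sterol and 11 of 15 fatty acid genes with the GC trend removed and under voom. After quantile normalization it was 13 of 20 and 11 of 15. The median of all tested genes was then 0.0019, and it was 0.0017 with the GC trend removed and -0.0054 under voom.

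Every NAT library lay above every DMSO library for 10 of the 35 members (28.6%, beside 14.1% of all tested genes), and none lay below (beside 4.89%). They were the sterol genes Sqle, Lss and Sc5d and the fatty acid genes Me1, Acaca, Scd1, Scd2, Fads1, Acsl3 and Gpam. With the GC trend removed, 8 lay above, beside 9.39% of all genes, and 1 below, beside 8.86%.

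Me1 had the largest difference with NAT of all 35 members. It stood at 109.9, 114.2 and 108.3 TPM in DMSO, 124.1, 131.7 and 136.1 TPM after NAT, and 122.3, 123.1 and 108.4 TPM with P7C3-A20. The NAT libraries were all above the DMSO libraries, and P7C3-A20 replicate 3 lay among the DMSO values. On the log2(TPM + 1) scale Me1 was higher with NAT by 0.24 ± 0.05 (SE), with a 95% interval from 0.12 to 0.35, and missed the threshold with a limma adjusted p of 0.21. Leaving out libraries moved it between 0.21 and 0.27 and its adjusted p between 0.214 and 0.507, and voom gave an adjusted p of 0.066. Me1 shares exon bases with A330041J22Rik on the opposite strand, and the kit is not stated to mark strand.

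The stearoyl-CoA desaturase Scd2 was at 2515, 2562 and 2593 TPM in DMSO, 2679, 2793 and 2777 TPM after NAT, and 2708, 2717 and 2401 TPM with P7C3-A20. Its log2 fold change with NAT was 0.10 ± 0.05 (SE, limma adjusted p = 0.425). Srebf1 was at 113.2, 116.6 and 130.3 TPM in DMSO and 124.5, 142.5 and 136.3 TPM with NAT, groups that overlapped, with a log2 fold change of 0.16 ± 0.06 (adjusted p = 0.338). Srebf1 shares exon bases with Rai1 on the opposite strand. Gpam, at 155.4, 157.8 and 169.2 TPM in DMSO and 174.1, 180.3 and 171.0 TPM with NAT, did not overlap between the groups and gave 0.12 ± 0.05 (adjusted p = 0.39). None of these can be set apart from the spread between libraries by this test.

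By role, positive differences with NAT were unevenly spread over the sterol genes. All 7 genes from lanosterol to cholesterol had positive log2 fold changes, from 0.046 for Nsdhl to 0.20 for Tm7sf2, with a median of 0.11. Only 2 of the 7 genes of mevalonate and isoprenoid units were positive, with a median of -0.024 and a range from -0.044 to 0.026. Of the desaturases and elongases 6 of 6 were positive, with a median of 0.080. These are medians of genes that each missed the threshold, read against 0.030 for all tested genes, and the difference between roles was not tested.

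**Figure D2:**
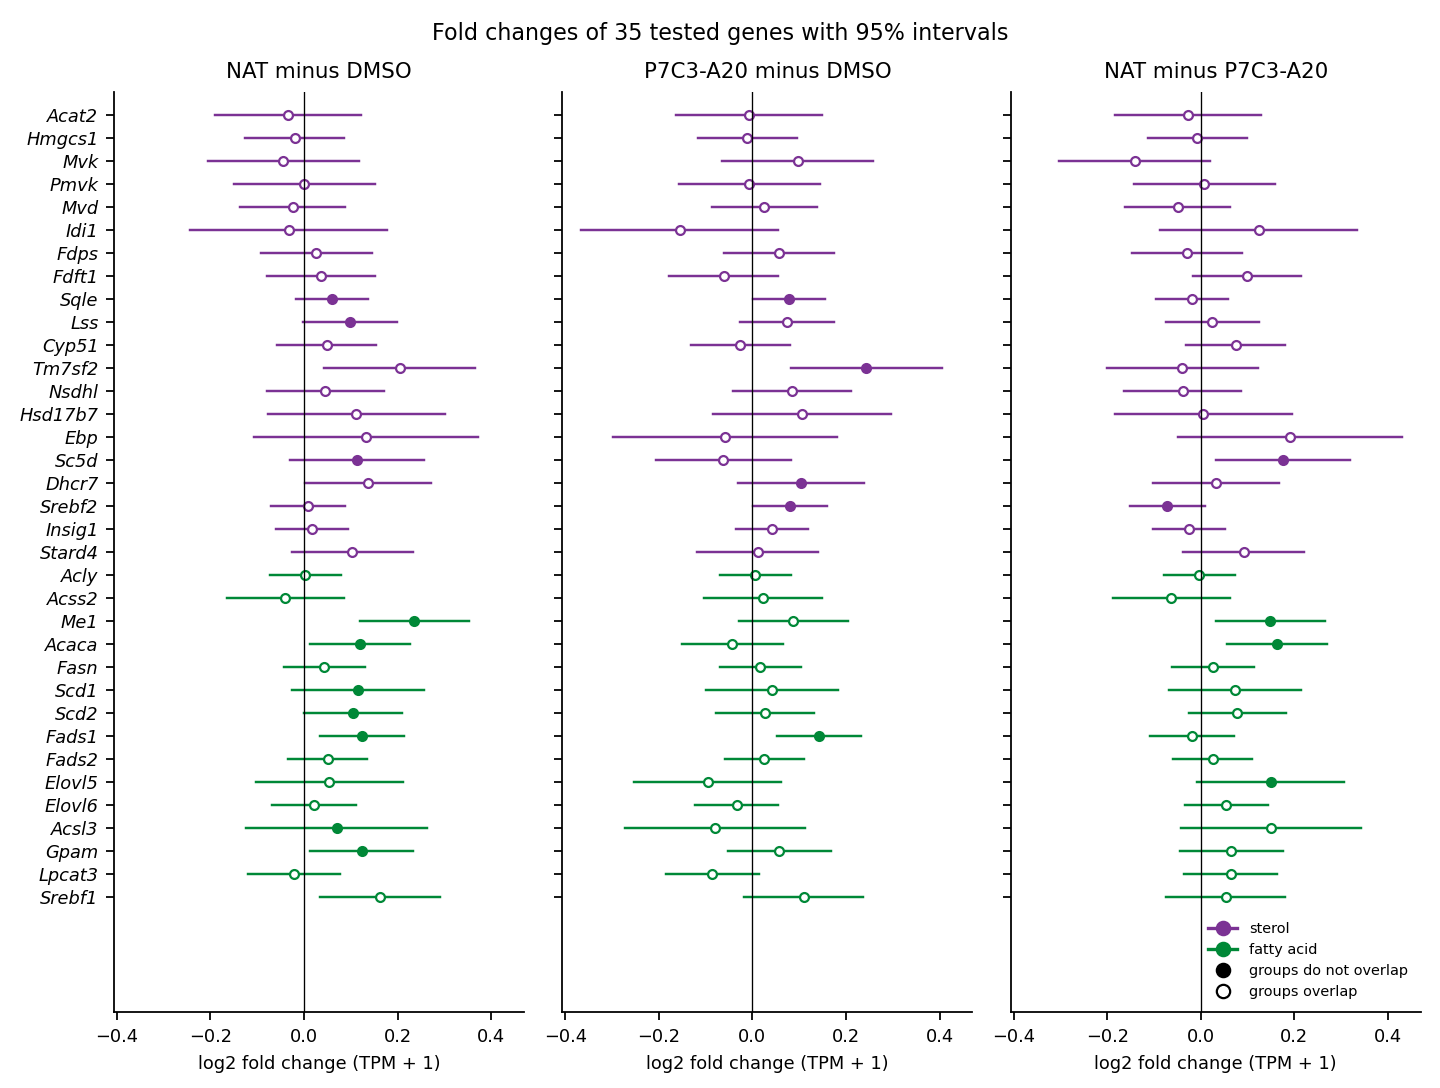
Log2 fold change of the 35 tested members on the log2(TPM + 1) scale in each comparison, with 95% intervals as bars, sterol genes in purple and fatty acid genes in green, filled where the libraries of the groups do not overlap. No member passed an adjusted p of 0.05, and Me1 with NAT and Tm7sf2 with P7C3-A20 lie farthest above 0 in their comparisons.

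With P7C3-A20, too, no member passed the test against DMSO. Of all tested genes 3 were called (0.0217%). The log2 fold change was above 0 for 12 of 20 sterol genes and 10 of 15 fatty acid genes, beside 55.2% of all tested genes, with medians of 0.034 and 0.023 against 0.015 for all tested genes. At an unadjusted p below 0.05 limma had 4 of 35 members (11.4%), all higher, beside 10.7% of all tested genes higher and 5.12% lower. These were Sqle, Tm7sf2, Srebf2 and Fads1. Groups were fully apart for 5 members, the same 4 and Dhcr7, all higher (14.3%, beside 13.1%), and none lower (beside 7.49%). Both shares were near those of all genes. With the GC trend removed, 3 were higher (Tm7sf2, Me1 and Fads1) and 2 lower (Fasn and Lpcat3) at an unadjusted p below 0.05, beside 5.67% and 5.37% of all genes, and the groups were apart for 3 higher and 1 lower, beside 8.15% and 8.08%.

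The fatty acid genes depended on P7C3-A20 replicate 3. Without it, limma had 6 of 15 fatty acid genes higher at an unadjusted p below 0.05 in place of 1, and their median log2 fold change was 0.063 in place of 0.023, while 8.78% of all tested genes were higher. Without P7C3-A20 replicate 1 or 2 the fatty acid median was -0.0015 or -0.0007. Sterol genes had 2 of 20 without replicate 3, with a median of 0.043, in place of 3 with 0.034. No member was called in any of these fits.

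Tm7sf2, which reduces a sterol intermediate after lanosterol, had the largest difference of the members with P7C3-A20. It was at 51.99, 48.51 and 55.69 TPM in DMSO, 54.77, 60.3 and 65.53 TPM after NAT, and 62.5, 65.65 and 57.34 TPM with P7C3-A20. The P7C3-A20 libraries lay above all DMSO libraries, while the lowest NAT library lay within the DMSO range. The log2 fold change was 0.24 ± 0.07 (SE) with P7C3-A20, with a 95% interval from 0.08 to 0.41 and a limma adjusted p of 0.182, and 0.20 ± 0.07 with NAT, with an adjusted p of 0.342. Tm7sf2 shares exon bases with Vps51 on the same strand, so part of these reads may belong to either gene.

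Fads1, which desaturates precursors of arachidonate, was at 519.9, 536.1 and 548.6 TPM in DMSO, 558.9, 609.1 and 581.5 TPM after NAT, and 597.5, 608.5 and 565.7 TPM with P7C3-A20. All 6 treated libraries stood above the 3 DMSO libraries. Its log2 fold change was 0.14 ± 0.04 (SE) with P7C3-A20 (limma adjusted p = 0.172) and 0.12 ± 0.04 with NAT (adjusted p = 0.305). Under voom the P7C3-A20 difference was 0.13 with an adjusted p of 0.0452, the only member value to cross the threshold in any setting run. With the GC trend removed it was 0.10 with an adjusted p of 0.372. Both contrasts share the DMSO libraries.

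The differences of Srebf2 and Srebf1 with P7C3-A20 moved with the GC trend. Srebf2, at 57.89% GC, was at 154.8, 161.2 and 166.3 TPM in DMSO and 167.7, 170.3 and 171.9 TPM with P7C3-A20, all above DMSO, a log2 fold change of 0.08 ± 0.04 (SE, limma adjusted p = 0.312) that was -0.01 with the GC trend removed. Srebf1, at 58.39% GC, stood at 128.7, 130.6 and 128.8 TPM with P7C3-A20, overlapping DMSO, and its 0.11 ± 0.06 (adjusted p = 0.38) became 0.01. Sqle, at 48.6% GC, changed little, from 0.08 to 0.07 with the trend removed, while its unadjusted limma p went from 0.0459 to 0.0861. In P7C3-A20 against DMSO the median gene of 55 to 60% GC differed by 0.092 and that of 40 to 45% GC by -0.047, where NAT against DMSO had 0.031 in both bins.

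**Figure D3:**
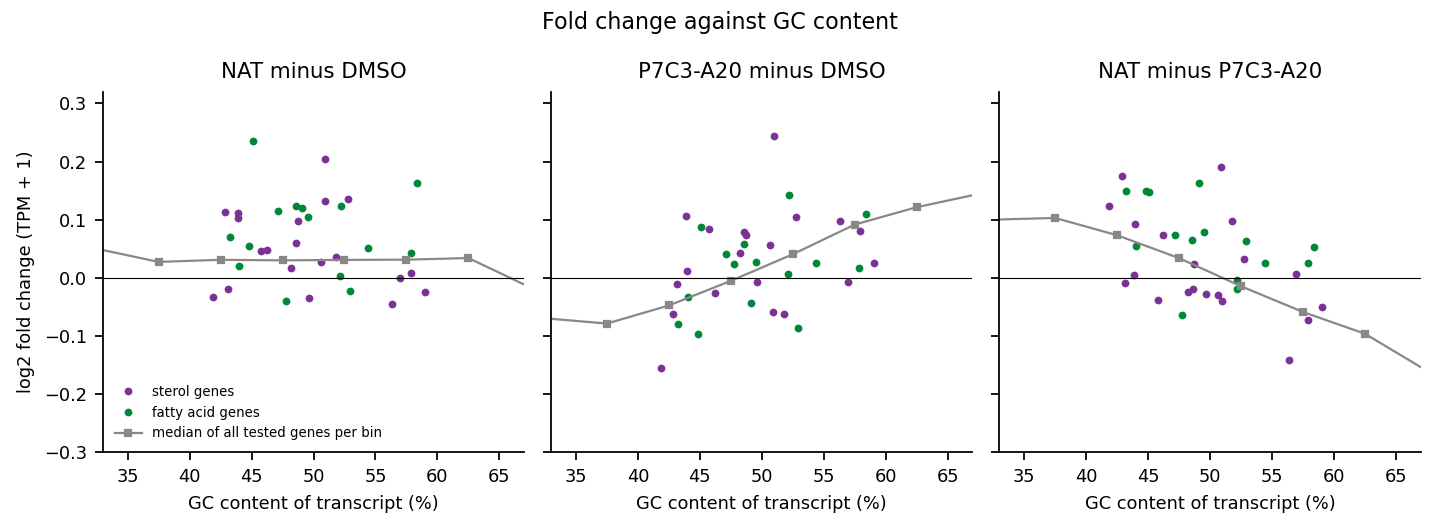
Log2 fold change of members against the GC content of their longest transcript, 1 panel per comparison, with the median of all tested genes in bins of 5 points of GC as a grey line with squares. The line is nearly flat for NAT against DMSO and climbs from -0.047 at 40 to 45% GC to 0.092 at 55 to 60% GC for P7C3-A20 against DMSO.

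NAT and P7C3-A20 did not differ in any member by the test, and in no gene of the table (0 called, 0% of 13839). An unadjusted p below 0.05 in limma was reached by 2188 of all tested genes, and voom called 283. At an unadjusted p below 0.05 limma had Sc5d, Me1 and Acaca of the 35 members, all higher with NAT (8.57%, beside 9.92% of all tested genes higher and 5.89% lower). The libraries of Sc5d, Me1, Acaca and Elovl5 were all higher with NAT (11.4%, beside 13.3%), and those of Srebf2 were all lower (1 of 35, beside 8.35%). The difference in Srebf2 was -0.07 ± 0.04 (SE, limma adjusted p = 0.355) and -0.0067 with the GC trend removed. With that trend removed, Acaca, Fasn and Srebf1 were higher and Hmgcs1 lower at an unadjusted p below 0.05, beside 5.80% and 5.91% of all genes, and the groups were apart for 5 higher and 2 lower, beside 9.88% and 8.45%. The count of 3 higher became 8 (22.9%, beside 11.3%) without P7C3-A20 replicate 1, and 1 higher and 1 lower without P7C3-A20 replicate 3 or without NAT replicate 3. Voom called none of the 35. Acaca was at 30.72, 29.92 and 30.89 TPM after NAT, 28.45, 26.48 and 26.56 TPM with P7C3-A20, and 28.25, 27.04 and 28.75 TPM in DMSO, so both other groups lay below NAT. Its log2 fold change for NAT minus P7C3-A20 was 0.16 ± 0.05 (SE, limma adjusted p = 0.206), and 0.15 with the GC trend removed.

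For several fatty acid genes and Sc5d the gap between the compounds was smaller without P7C3-A20 replicate 3. Elovl5 stood at 317.1, 319.0 and 254.6 TPM with P7C3-A20 against 328.8, 332.9 and 321.7 TPM after NAT, and its log2 difference of 0.15 ± 0.07 (SE) was 0.04 without that replicate. Acsl3 stood at 183.8, 188.3 and 140.2 TPM against 188.5, 191.6 and 183.8 TPM, and its 0.15 ± 0.09 was 0.01 without it. Sc5d stood at 64.12, 63.51 and 52.9 TPM against 67.44, 65.82 and 70.37 TPM, and its 0.18 ± 0.07 was 0.09. Me1, given above, had 0.15 ± 0.05 and 0.09 without it. In each of these 4 genes the low P7C3-A20 value was that of replicate 3. Acsl3 shares exon bases with Utp14b on the same strand.

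**Figure D4:**
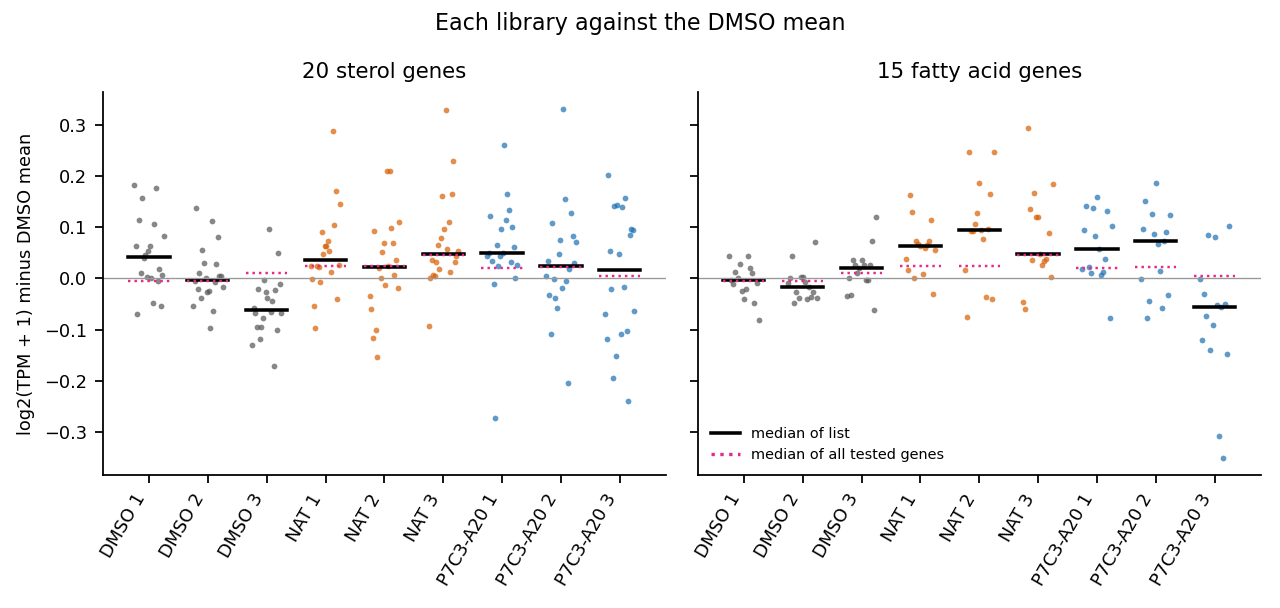
Difference of log2(TPM + 1) from the DMSO mean for each tested sterol and fatty acid gene (points) in each of the 9 libraries, with the median of the list as a bar and that of all tested genes as a dotted line. The median fatty acid gene lies at -0.057 in P7C3-A20 replicate 3 and between 0.048 and 0.096 in the other 5 treated libraries, and the median sterol gene is lowest in DMSO replicate 3, at -0.062.

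Set against each other, the fatty acid genes stood apart from DMSO more often than the sterol genes with NAT. These were 7 of 15 against 3 of 20 genes, all higher (46.7% and 15%, beside 14.1% of all tested genes). The difference was not tested. With the GC trend removed, 6 of 15 fatty acid genes lay above and 1 below, and 2 of 20 sterol genes above. All genes then had 9.39% above and 8.86% below. With P7C3-A20 the counts were 1 of 15 and 4 of 20, all higher (6.67% and 20%, beside 13.1%). The sterol genes summed to 1940, 1894 and 1830 TPM in DMSO, 1922, 1880 and 1952 TPM after NAT, and 1962, 1939 and 1862 TPM after P7C3-A20, groups that all overlapped. The fatty acid genes summed to 5627, 5665 and 5772 TPM in DMSO, 5915, 6181 and 6080 TPM after NAT, and 6011, 6027 and 5405 TPM with P7C3-A20. All 3 NAT sums and those of P7C3-A20 replicates 1 and 2 exceeded the DMSO range, and that of P7C3-A20 replicate 3 fell below it. Without Scd2 this was the same: 3112, 3103 and 3179 TPM in DMSO, 3236, 3388 and 3303 TPM after NAT, and 3302, 3310 and 3004 TPM with P7C3-A20. The sterol median minus the fatty acid median of log2 fold changes was -0.029 with NAT and 0.010 with P7C3-A20, each against DMSO, and ranged from -0.0612 to 0.0011 and from -0.0196 to 0.0496 when a library was left out. It was -0.065 for NAT minus P7C3-A20, which was -0.0058 without P7C3-A20 replicate 3.

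The intervals bound what was missed. With NAT against DMSO the 95% interval stayed within 1.25-fold either way for 18 of 20 sterol and 14 of 15 fatty acid genes, with P7C3-A20 against DMSO for 18 and 15, and between the compounds for 18 and 14. All members stayed within 1.5-fold in the 3 comparisons. A missed threshold does not show that levels were equal. Acacb, fitted with no filter on low values, gave log2 differences of 0.07 with NAT, 0.16 with P7C3-A20 and -0.09 for NAT minus P7C3-A20, with limma adjusted p of 0.826, 0.522 and 0.73.

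Of the other genes of both pathways, none passed the test either. Among 13 tested genes of sterol synthesis, SREBP processing, uptake and storage, 11 had positive log2 fold changes with NAT, 8 with P7C3-A20 and 9 for NAT minus P7C3-A20. Of all tested genes 63.5%, 55.2% and 54% were positive in the same order. Scap, the sterol sensor that escorts SREBP out of the endoplasmic reticulum, was at 71.51, 72.36 and 77.24 TPM in DMSO, 79.27, 84.9 and 85.56 TPM after NAT, and 83.23, 82.36 and 87.53 TPM with P7C3-A20, above DMSO in all 6 treated libraries. Its log2 fold change was 0.17 ± 0.05 (SE) with NAT (limma adjusted p = 0.241) and 0.19 ± 0.05 with P7C3-A20 (adjusted p = 0.153), the latter 0.09 with the GC trend removed, and voom called it with P7C3-A20 (adjusted p = 0.0308). Insig2, the paralog of Insig1, stood at 28.61, 26.99 and 29.64 TPM in DMSO and 25.18, 24.92 and 24.49 TPM with P7C3-A20, a log2 fold change of -0.18 ± 0.07 (adjusted p = 0.236). Npc1, which exports cholesterol from lysosomes, and Soat1, which esterifies it, were higher with NAT by 0.13 ± 0.03 (adjusted p = 0.225) and 0.13 ± 0.04 (adjusted p = 0.26). Npc1 with P7C3-A20 gave 0.09 ± 0.03 (adjusted p = 0.232). For NAT minus P7C3-A20, Soat1 gave 0.10 ± 0.04 and Ggps1, which makes geranylgeranyl diphosphate, 0.12 ± 0.06, with adjusted p of 0.241 and 0.312, and both were 0.03 with the GC trend removed.

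Among 26 tested genes of elongation, activation, glycerolipid synthesis and regulation, 16 had positive log2 fold changes with NAT, 13 with P7C3-A20 and 14 for NAT minus P7C3-A20. These counts were near or below the shares of all tested genes, 63.5%, 55.2% and 54%. Dgat1, which makes triacylglycerol, was at 48.98, 48.73 and 47.64 TPM after NAT, 57.32, 54.41 and 56.92 TPM with P7C3-A20 and 51.72, 50.6 and 53.17 TPM in DMSO. The 3 groups did not overlap, with NAT lowest and P7C3-A20 highest. NAT minus P7C3-A20 was -0.21 ± 0.04 (SE, limma adjusted p = 0.168), -0.16 with the GC trend removed, and called by voom (adjusted p = 0.0356). NAT minus DMSO was -0.10 ± 0.04 (limma adjusted p = 0.395), and -0.12 with the GC trend removed. P7C3-A20 minus DMSO was 0.12 ± 0.04 (limma adjusted p = 0.214), and 0.03 with that trend removed. The acyltransferase gene Agpat3 and the synthetase gene Acsl6 gave 0.18 ± 0.06 and 0.15 ± 0.05 with NAT (adjusted p = 0.305 and 0.345). With P7C3-A20 the acyltransferase gene Agpat1, the oxysterol receptor gene Nr1h2 and the enoyl reductase gene Tecr gave 0.15 ± 0.04, 0.26 ± 0.08 and 0.12 ± 0.04 (adjusted p = 0.166, 0.178 and 0.189), which were 0.05, 0.15 and 0.03 with the GC trend removed. For NAT minus P7C3-A20, Tecr gave -0.12 ± 0.04 and Nr1h2 -0.23 ± 0.08 (adjusted p = 0.199 and 0.218). Voom, which has no GC correction, called both, and with the GC trend removed they were -0.07 and -0.15.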

How the data were processed

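The 9 libraries of mouse neural stem cells were prepared with the TruSeq RNA kit of Illumina, per the labels' protocols. The authors deposited TPM for 23420 gene symbols, with each column summing to 1000000. Bowtie 0.12.2 and the builds mm8 and mm9 are named without a role, per the submitters' processing notes. For the read counter and annotation, nothing is given in the sources used here, so coordinates are only those of RefSeq promoters on GRCm38.p6. TPM steps gave whole reads for all 19302 rows above 0 (100%, tolerance 0.001), which served for depth and voom. The library sizes given to voom left out the reads of Rn45s, a row that the TPM scaling includes.

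Groups were compared with limma-trend (limma 3.58.1, R 4.3.3) on log2(TPM + 1), which understates the change of low genes, over 13839 genes with at least 1 TPM in 3 or more libraries. A common fit took all 9 libraries and had 6 residual degrees of freedom. P-values are two-sided, adjusted over all tested genes by Benjamini and Hochberg, and called below an adjusted p of 0.05. Errors are standard errors of the fit. The fit was tested on simulated data. GC content of the longest GENCODE transcript was found for 99.1% of tested genes. Symbols of 4 pathway genes were matched by older names, and Idi2 was not tested. The rest was done in Python 3.11.15 with pandas 2.3.3, numpy 2.4.6 and matplotlib 3.10.9.

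The members and lists were chosen with earlier results of these data known, so lists get counts and medians without a p. All members are named, and of the other pathway genes the 3 with the lowest p per list and comparison, of which 1 is not reported here. Alternatives were quantile normalization, other filters, a pseudocount of 0.1, the 6 compared libraries alone, a replicate block, removal of the GC trend (spline with 5 degrees of freedom), voom and each library left out. Removal of GC and length trends together, and the GC-corrected count of groups that do not overlap, were added after seeing the data.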

Additional observations from a re-analysis of the deposited data

How the results depend on the processing

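For the 35 tested members, each of the 3 comparisons had 560 values under alternatives. None was called in any of them except Fads1 with P7C3-A20 under voom. Values moved by over 1 SD between libraries in 10 cases with NAT and 18 with P7C3-A20, each against DMSO, and in 19 between the compounds, and 14, 18 and 18 members changed sign in some setting while not called. For the sterol median with NAT, 0.041 became 0.0100 with the GC and length trends removed and 0.0062 under voom. The median of all tested genes moved as well, from 0.030 to 0.0005 and -0.0054 in the same settings. Sterol minus fatty acid medians for NAT against P7C3-A20 ranged from -0.0818 to -0.0058 when a library was left out, the latter without P7C3-A20 replicate 3.

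Counts of all called genes were less stable. The 4 called with NAT became 2 with at least 5 TPM, 1 with a pseudocount of 0.1, 7 with the 6 compared libraries, 30 under voom (6 higher, 24 lower, against 0 and 4), and 1 to 11 when a library was left out, the highest without DMSO replicate 2 and the lowest without either DMSO replicate 3 or else NAT replicate 3. The 3 called with P7C3-A20 became 0 with at least 5 TPM, 0 with a pseudocount of 0.1, 5 with 6 libraries, 269 under voom (159 higher, 110 lower, against 1 and 2), and 1 to 10 when a library was left out, the highest without DMSO replicate 3 and the lowest without P7C3-A20 replicate 1, 2 or 3 in turn. For NAT against P7C3-A20, 0 became 5 with 6 libraries, 283 under voom (131 higher, 152 lower), and 0 to 1 when a library was left out, 1 being without P7C3-A20 replicate 2. The cause was not tested.

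The labels do not say whether replicate numbers pair the libraries. Deviations from the group mean correlated between -0.0622 and 0.0673 for equal numbers and between -0.0901 and 0.0986 for unequal ones. With 3 libraries per group mean, these values cannot decide whether the libraries were paired. With the replicate block, P7C3-A20 against DMSO had 7 called genes and NAT against P7C3-A20 had 1, and with the GC trend removed as well P7C3-A20 against DMSO had 1. Depth limited Acacb most, with 24 to 54 reads.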
